A study of Mus musculus with 23 samples.

Results

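The genes described here drive the cell division cycle and copy the DNA: 46 genes were listed by their known roles, and 45 of them were measured among the 24704 named genes of the arrays. The list was made with earlier results of these data known. They fall into 24 genes of mitosis and its approach, 18 genes of S phase and its onset, and 3 regulators of G1, the phase in which a cell either commits to division or rests. The cyclin B1 gene Ccnb1, the remaining gene of the list, was not analysed here. Each gene was compared between cells that had received plasma of 4 kinds of mice.

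The cells were primary mouse aortic endothelial cells (labelled C57BL/6J), which line the inner wall of the aorta. They were grown to confluence in medium with 10% fetal calf serum and then kept for 48 h in medium in which 10% mouse plasma took the serum's place, so all groups shared the cells, the plasma share and the time. The plasma came from wildtype mice (n = 6 arrays), from mice without apolipoprotein E (ApoE-KO, n = 5), from mice without both apolipoprotein E and Stabilin-1 (ApoE-Stab1-KO, n = 6), and from mice without both apolipoprotein E and Stabilin-2 (ApoE-Stab2-KO, n = 6). The stabilins are scavenger receptors of sinusoidal endothelium that clear ligands from plasma. These are genotypes of donors of plasma; the labels give none of these deletions for the cells. The 3 knockout donor groups had received Western diet for 8 weeks, while the labels give no diet, age or sex for wildtype donors, so donor genotype and diet cannot be told apart in comparisons with wildtype plasma. Whether arrays of a group came from separate cultures or donors is not given, and p-values then measure only the spread between these arrays, which may be technical.

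A resting cell that is pushed into the cycle makes cyclin D, whose kinases inactivate the retinoblastoma protein and so free the E2F factors, which turn on the genes of DNA synthesis. The inhibitors p21 and p27, encoded by Cdkn1a and Cdkn1b, hold cyclin-dependent kinases back. Later, in G2, the MuvB complex with B-Myb and FoxM1 turns on the genes of mitosis through a promoter element named CHR (cell cycle genes homology region), often near CCAAT boxes bound by NF-Y. Endothelial cells at confluence are known to divide rarely because contact between them restrains growth, and aortic endothelium is mostly quiescent in the animal.

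The arrays gave log2 levels between 2.52 and 13.9, in which a difference of 1 is a doubling, and each pair of arrays correlated with r between 0.992 and 0.997. All 45 genes lay above the level of the median gene (4.30). This is a coarse guide to detection, since a level also depends on the probes of its set, and other comparisons are made between arrays and not between genes. All 14 endothelial markers did so too, with array means of 10.86 to 11.08, whereas 3 of 8 smooth muscle markers, 3 of 8 fibroblast markers, 1 of 8 leukocyte markers and 0 of 5 genes of blood or liver lay above it, as did 3 of 4 lymphatic markers. Array means of those lists ranged from 4.85 to 5.03 for smooth muscle, 3.91 to 4.06 for fibroblasts, 4.42 to 4.59 for leukocytes, 7.56 to 7.79 for lymphatic endothelium and 3.36 to 3.57 for blood and liver, and their part in the results was not tested. In RNA of a whole culture, fewer cells in a phase and less RNA per cell cannot be told apart.

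Promoter elements are known to time many genes of the cycle, and 8 promoters are printed here because their genes recur in the results: Cdk1, Aurka, Mcm3 and Cdc45 had some of the smallest unadjusted p-values, and Mki67 with Top2a and Mcm5 with Rrm2 were pairs whose co-variation was tested. The windows are from RefSeq on assembly GRCm38.p6 and run from 250 bases before to 50 bases after an annotated transcript start, read 5′ to 3′ along the gene. Capitals mark matches, on either strand, to the CHR word TTTGAA, to the CCAAT box, whose letters are its name, or to any of the E2F words TTTGGCGC, TTTCGCGC, TTTCCCGC and TTTGCCGC. A match is a description of the letters and not a measured binding site. The mitotic windows lie at chr10:69352863-69353162 (Cdk1, minus strand), chr2:172370521-172370820 (Aurka, minus), chr7:135716330-135716629 (Mki67, minus) and chr11:99024140-99024439 (Top2a, minus).
Cdk1: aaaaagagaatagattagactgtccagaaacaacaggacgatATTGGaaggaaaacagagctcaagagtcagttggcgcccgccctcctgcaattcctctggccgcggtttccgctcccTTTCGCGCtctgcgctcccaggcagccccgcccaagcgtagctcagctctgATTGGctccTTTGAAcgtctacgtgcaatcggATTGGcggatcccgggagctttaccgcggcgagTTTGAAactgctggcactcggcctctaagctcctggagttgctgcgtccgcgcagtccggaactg
Aurka: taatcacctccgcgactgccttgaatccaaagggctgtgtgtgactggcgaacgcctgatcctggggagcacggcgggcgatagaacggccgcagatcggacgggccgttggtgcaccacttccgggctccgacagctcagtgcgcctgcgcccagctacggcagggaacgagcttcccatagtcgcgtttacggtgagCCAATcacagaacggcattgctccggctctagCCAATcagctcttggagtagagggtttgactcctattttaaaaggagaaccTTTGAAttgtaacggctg
Mki67: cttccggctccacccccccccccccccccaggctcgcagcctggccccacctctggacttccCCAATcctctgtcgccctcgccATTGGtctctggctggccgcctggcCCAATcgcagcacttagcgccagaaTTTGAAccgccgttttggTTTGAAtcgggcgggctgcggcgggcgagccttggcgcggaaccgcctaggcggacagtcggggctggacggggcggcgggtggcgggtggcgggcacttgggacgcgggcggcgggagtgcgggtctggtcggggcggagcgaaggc
Top2a: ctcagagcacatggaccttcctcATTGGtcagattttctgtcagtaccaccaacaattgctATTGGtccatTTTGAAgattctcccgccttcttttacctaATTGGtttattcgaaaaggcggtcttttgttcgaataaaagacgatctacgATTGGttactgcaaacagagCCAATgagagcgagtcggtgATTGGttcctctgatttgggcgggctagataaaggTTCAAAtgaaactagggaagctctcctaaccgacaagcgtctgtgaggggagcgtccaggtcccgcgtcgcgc
The windows of S-phase genes lie at chr1:20820263-20820562 (Mcm3, minus), chr8:75109259-75109558 (Mcm5, plus), chr12:24708004-24708303 (Rrm2, plus) and chr16:18811923-18812222 (Cdc45, minus); in Mcm5 a pair of overlapping E2F matches forms 1 run of capitals.
Mcm3: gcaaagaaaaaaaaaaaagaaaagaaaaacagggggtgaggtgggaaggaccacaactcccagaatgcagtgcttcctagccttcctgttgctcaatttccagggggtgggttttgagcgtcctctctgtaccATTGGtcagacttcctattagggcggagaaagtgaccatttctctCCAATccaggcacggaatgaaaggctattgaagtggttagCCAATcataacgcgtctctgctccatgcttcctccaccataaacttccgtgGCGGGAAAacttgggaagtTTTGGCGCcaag
Mcm5: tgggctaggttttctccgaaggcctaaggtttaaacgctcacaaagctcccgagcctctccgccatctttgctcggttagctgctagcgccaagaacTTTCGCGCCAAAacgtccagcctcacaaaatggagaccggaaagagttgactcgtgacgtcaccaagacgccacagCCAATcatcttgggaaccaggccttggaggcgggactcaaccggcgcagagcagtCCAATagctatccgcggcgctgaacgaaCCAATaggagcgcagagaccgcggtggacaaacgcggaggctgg
Rrm2: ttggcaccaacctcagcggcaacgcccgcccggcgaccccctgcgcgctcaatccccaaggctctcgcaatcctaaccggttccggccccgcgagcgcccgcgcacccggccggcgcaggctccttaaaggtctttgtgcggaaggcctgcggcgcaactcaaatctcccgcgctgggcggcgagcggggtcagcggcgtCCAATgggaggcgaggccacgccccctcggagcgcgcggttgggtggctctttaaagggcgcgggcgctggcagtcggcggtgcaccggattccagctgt
Cdc45: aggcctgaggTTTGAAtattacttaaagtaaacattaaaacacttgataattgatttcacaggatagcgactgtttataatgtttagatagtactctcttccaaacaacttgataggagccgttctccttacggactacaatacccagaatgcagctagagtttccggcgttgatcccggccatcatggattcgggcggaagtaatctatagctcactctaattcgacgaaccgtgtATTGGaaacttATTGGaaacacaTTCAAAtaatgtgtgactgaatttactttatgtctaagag

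Of the 45 genes, 35 had such a window, some with more than 1 start, which gave 38 windows; the other 10 had none. TTTGAA stood in 16 of 20 windows of mitotic genes (80%), in 2 of 15 of S-phase genes (13.3%) and in 0 of 3 of G1 genes, beside 17.9% of all 32851 windows of the same length. In 14 of 19 mitotic genes with a window a match lay between 60 bases before the start and the window's end. Cdk1 had matches whose first bases lay at -71 and -15 from its start, and Mki67 had them at -116 and -98. The CCAAT box stood in 18 of 20 mitotic windows (90%), in 10 of 15 S-phase windows (66.7%) and in 37.4% of all windows, and 16 of 20 mitotic windows held both elements, as did 6.95% of all windows. The E2F words showed the reverse order: they stood in 6 of 15 S-phase windows (40%), in 1 of 20 mitotic windows (5%), that of Cdk1, and in 2.26% of all windows. The windows also differed in base composition, with a median GC content of 59.7% in mitotic, 57.7% in S-phase and 52.7% in all windows. The start used was the outer end of the gene's annotated entry in 21 of 38 windows, and distances depend on which start was used. The map of these matches shows most mitotic CHR matches near the start used and the E2F matches mainly among S-phase genes.

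None of the 45 listed genes differed between plasmas beyond the test's threshold. Of the 45 genes, 0 passed the limma moderated F-test over the 4 groups with a Benjamini-Hochberg adjusted p under 0.05, where 0.546% of all genes did, and the smallest adjusted p was 0.15 (Gins2). At an unadjusted p under 0.05 the F-test took 3 of 45 (Cdk1, Gins2 and Cdkn1a), where it took 11.9% of all genes; limma with trend and robust settings also took 3, with 0 past the adjusted threshold. The 6 pairwise comparisons gave 0 of 45 as well, where 0.00405% to 0.53% of all genes passed. At shares this small, 0 calls among 45 genes is near the background and does not set cell cycle genes apart. With trend and robust settings the comparisons took 2 to 7 of 45 at an unadjusted p under 0.05. The share of all genes under those settings was not computed, so neither these counts nor the 3 of the F-test have a background. A p that misses the threshold does not show that levels were equal, so the intervals matter. Each of the 270 intervals (45 genes in 6 comparisons, 95%) lay within a 1.5-fold change in either direction, the farthest bound was 1.37-fold (Birc5, ApoE-Stab2-KO against ApoE-KO), and the largest difference was 1.20-fold (Gins2, the same comparison). The 95% holds for each interval alone and not for all 270 together. Like the p-values, the intervals rest on the spread between these arrays, which may be technical, so they need not hold for new cultures or donors. The group means of a cell cycle gene spanned 0.11 at the median over the 45 genes, as they did over all genes (0.11). The heat map shows each gene on each array.

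**Figure D1:**
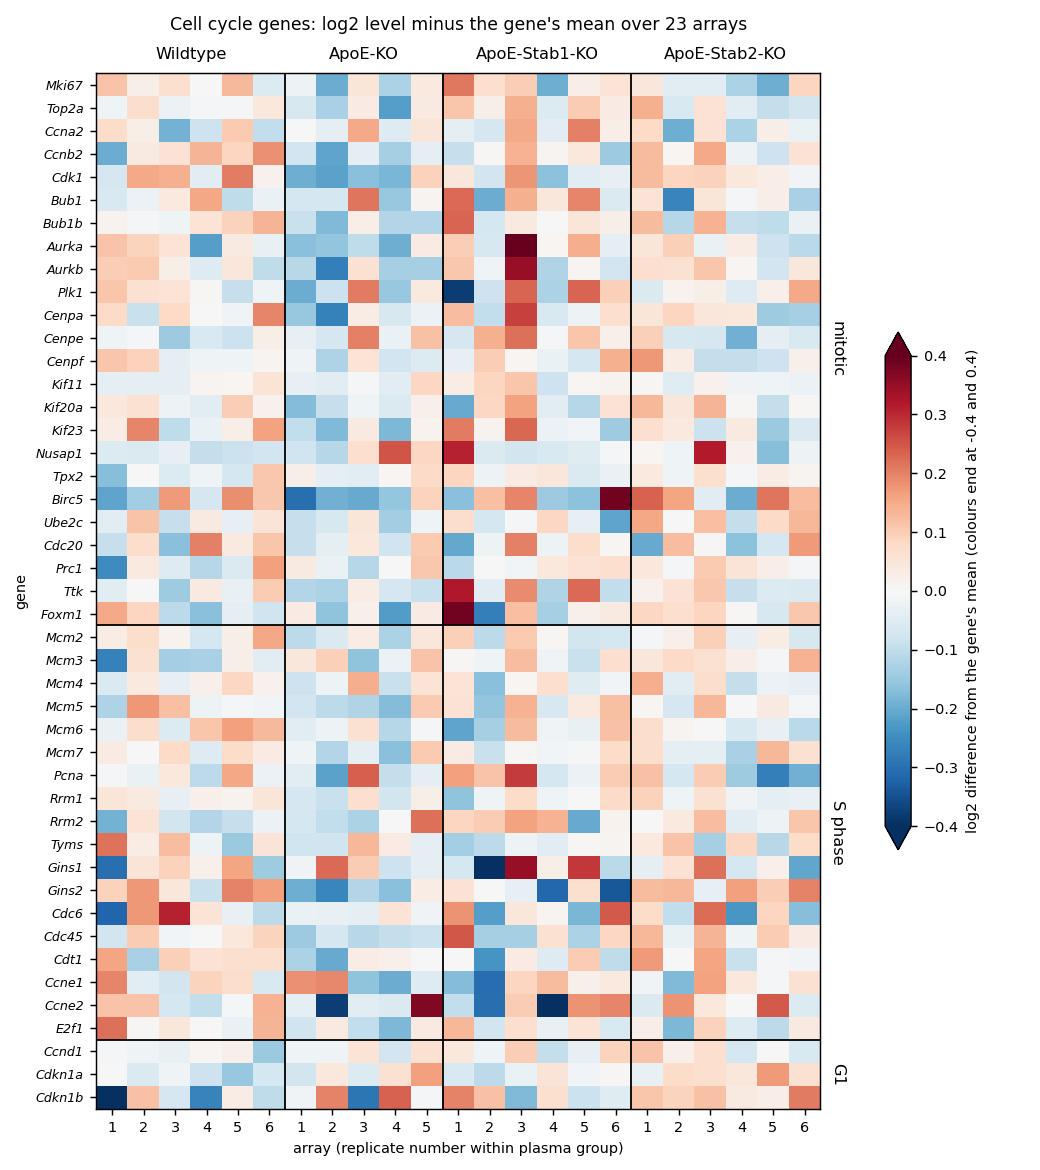
Log2 level of each of 45 genes (rows: mitotic, S phase, G1) on each of 23 arrays (columns, grouped by plasma), as the difference from that gene's mean over all arrays; colours end at -0.4 and 0.4. Whole columns lean red or blue within a group, as ApoE-Stab1-KO replicate 3 does, and the groups overlap.

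Among mitotic genes, the levels of Mki67, Top2a, Cdk1, Aurka and Birc5 show how small the differences were. Mki67, which encodes the proliferation antigen Ki-67 that coats mitotic chromosomes, stood in ApoE-KO replicates 1 to 5 at 9.83, 9.65, 9.90, 9.72 and 9.89 (log2). Its lowest, median and highest values were 9.80, 9.89 and 9.98 with wildtype plasma, 9.66, 9.91 and 10.06 with ApoE-Stab1-KO and 9.65, 9.81 and 9.94 with ApoE-Stab2-KO plasma. The 4 groups overlapped, and the difference of ApoE-KO from wildtype was -0.10 ± 0.06 (SE; 95% interval -0.23 to 0.03; limma, adjusted p = 0.656). Top2a, the topoisomerase that untangles sister DNA before mitosis, stood in the ApoE-KO arrays at 9.67, 9.61, 9.77, 9.52 and 9.78. Its range was 9.72 to 9.81 (median 9.73) with wildtype, 9.68 to 9.88 (9.81) with ApoE-Stab1-KO and 9.64 to 9.88 (9.69) with ApoE-Stab2-KO plasma. The lowest of the 23 values was ApoE-KO replicate 4, and all groups overlapped. Top2a was 0.13 ± 0.05 higher with ApoE-Stab1-KO than with ApoE-KO plasma (interval 0.02 to 0.24; unadjusted p = 0.0216, limma adjusted p = 0.862), which did not pass.

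Cdk1, the kinase that with cyclin B starts mitosis, had the smallest unadjusted p among mitotic genes for ApoE-KO against wildtype plasma. The ApoE-KO arrays stood at 8.59, 8.57, 8.61, 8.60 and 8.87, so 4 of 5 lay between 8.57 and 8.61 and replicate 5 lay apart above them. With wildtype plasma Cdk1 ranged from 8.71 to 8.98 (median 8.86), with ApoE-Stab1-KO from 8.62 to 8.96 (8.74) and with ApoE-Stab2-KO from 8.77 to 8.91 (8.84). Those 4 ApoE-KO arrays lay below every array of the other groups, and replicate 5 lay inside their ranges. The difference of ApoE-KO from wildtype was -0.20 ± 0.06 (0.870-fold; interval -0.33 to -0.07; unadjusted p = 0.00446, limma adjusted p = 0.191), and that of ApoE-Stab2-KO from ApoE-KO was 0.19 ± 0.06 (interval 0.06 to 0.33; adjusted p = 0.371). Both comparisons use the same ApoE-KO arrays, and neither passed.

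Aurka, the kinase that ripens centrosomes and builds spindle poles, stood at 7.73, 7.74, 7.79, 7.70 and 7.93 in the ApoE-KO arrays. It ranged from 7.67 to 8.01 (median 7.94) with wildtype, from 7.83 to 8.34 (7.95) with ApoE-Stab1-KO and from 7.79 to 7.99 (7.90) with ApoE-Stab2-KO plasma. The groups overlapped, with the highest value in the ApoE-Stab1-KO group. Its difference of ApoE-Stab1-KO from ApoE-KO, 0.22 ± 0.08 (1.16-fold; interval 0.06 to 0.37; unadjusted p = 0.00861), had an adjusted p of 0.82 in limma. Birc5 encodes survivin, which with Aurora B corrects kinetochore attachment, and stood at 6.44, 6.55, 6.54, 6.59 and 6.83 in the ApoE-KO arrays. Its ranges were 6.53 to 6.93 (median 6.76) with wildtype, 6.57 to 7.13 (6.73) with ApoE-Stab1-KO and 6.54 to 6.98 (6.88) with ApoE-Stab2-KO plasma, and they overlapped. The difference of ApoE-Stab2-KO from ApoE-KO was 0.23 ± 0.10 (1.18-fold; interval 0.02 to 0.45; limma adjusted p = 0.567).

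The remaining named mitotic genes are given by their group means. The kinetochore motor gene Cenpe averaged 8.38 ± 0.06 (SD, n = 6) with wildtype, 8.47 ± 0.12 (n = 5) with ApoE-KO, 8.50 ± 0.11 (n = 6) with ApoE-Stab1-KO and 8.37 ± 0.09 (n = 6) with ApoE-Stab2-KO plasma. Bub1b, whose product BubR1 holds back anaphase until chromosomes are attached, averaged 7.03 ± 0.06, 6.89 ± 0.08, 7.03 ± 0.10 and 6.97 ± 0.12 in the same order of groups. Ube2c, the ubiquitin-conjugating enzyme of the anaphase-promoting complex, averaged 9.41 ± 0.08, 9.35 ± 0.07, 9.37 ± 0.11 and 9.47 ± 0.10 in that order. The plasma groups overlapped in each of these 3 genes. Prc1, which bundles microtubules of the spindle midzone, averaged 8.59 ± 0.14, 8.63 ± 0.08, 8.64 ± 0.06 and 8.67 ± 0.04. Kif11 and Tpx2, which encode a motor and a factor of spindle assembly, were among the steadiest genes: Kif11 averaged 8.13 ± 0.04, 8.13 ± 0.05, 8.16 ± 0.07 and 8.12 ± 0.02, and Tpx2 averaged 8.65 ± 0.09, 8.69 ± 0.05, 8.70 ± 0.05 and 8.71 ± 0.03.

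Of the S-phase genes, Gins2 had group means that spanned the most, 0.26. It encodes a subunit of GINS, which joins Cdc45 and the Mcm ring to form the helicase that opens the DNA ahead of the fork. Gins2 stood at 6.76, 6.69, 6.84, 6.79 and 6.99 in the ApoE-KO arrays. It ranged from 6.86 to 7.15 (median 7.08) with wildtype, from 6.62 to 7.02 (6.94) with ApoE-Stab1-KO and from 6.92 to 7.15 (7.08) with ApoE-Stab2-KO plasma. In the ApoE-KO group, 4 of 5 arrays lay below all wildtype and ApoE-Stab2-KO arrays, and replicate 5 made the groups overlap. Its differences were -0.24 ± 0.08 for ApoE-KO minus wildtype (0.847-fold; interval -0.39 to -0.08; unadjusted p = 0.00414, limma adjusted p = 0.186) and 0.26 ± 0.08 for ApoE-Stab2-KO minus ApoE-KO (interval 0.10 to 0.41; 0.0023 and 0.283). ApoE-Stab1-KO minus wildtype gave -0.19 ± 0.07 (0.0138 and 0.29) and ApoE-Stab2-KO minus ApoE-Stab1-KO gave 0.21 ± 0.07 (0.00771 and 0.263).

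Cdc45 stood at 7.07, 7.14, 7.10, 7.12 and 7.12 in the ApoE-KO arrays. It ranged from 7.14 to 7.31 (median 7.23) with wildtype, from 7.08 to 7.46 (7.18) with ApoE-Stab1-KO and from 7.18 to 7.35 (7.28) with ApoE-Stab2-KO plasma. All ApoE-KO values lay below all ApoE-Stab2-KO values, which was the 1 case of groups that did not overlap among the 45 genes in that comparison, where 1.33% of all genes had such groups. The other comparisons had 0 such cases, beside 1.98% of all genes for ApoE-KO against wildtype, 0.854% for ApoE-Stab1-KO against wildtype, 1.15% for ApoE-Stab2-KO against wildtype, 0.368% for ApoE-Stab1-KO against ApoE-KO and 0.806% for ApoE-Stab2-KO against ApoE-Stab1-KO. The difference was 0.16 ± 0.06 (1.12-fold; interval 0.04 to 0.28; unadjusted p = 0.0128, limma adjusted p = 0.443).

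Mcm5, part of the Mcm2-7 helicase ring, stood at 7.95, 7.92, 7.91, 7.85 and 8.13 in the ApoE-KO arrays. Its ranges were 7.91 to 8.20 (median 8.02) with wildtype, 7.87 to 8.17 (8.08) with ApoE-Stab1-KO and 7.96 to 8.16 (8.03) with ApoE-Stab2-KO plasma, all overlapping. Rrm2, the subunit that limits ribonucleotide reductase and so the supply of DNA building blocks, stood at 8.86, 8.83, 8.81, 8.93 and 9.15. It ranged from 8.74 to 8.99 (8.85) with wildtype, from 8.73 to 9.09 (9.03) with ApoE-Stab1-KO and from 8.89 to 9.06 (8.95) with ApoE-Stab2-KO plasma. In both genes ApoE-KO replicate 5 was the highest of its group, and the groups overlapped. Pcna, the sliding clamp that holds the polymerase on DNA, stood at 11.38, 11.21, 11.67, 11.33 and 11.39 with ApoE-KO plasma. It ranged from 11.32 to 11.58 (11.41), from 11.36 to 11.71 (11.54) and from 11.15 to 11.54 (11.32) with wildtype, ApoE-Stab1-KO and ApoE-Stab2-KO plasma. The groups overlapped, and ApoE-Stab2-KO minus ApoE-Stab1-KO was -0.17 ± 0.08 (interval -0.33 to -0.01; limma adjusted p = 0.416).

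Of the helicase ring's other subunits, Mcm2 averaged 8.51 ± 0.07 (SD, n = 6) with wildtype, 8.43 ± 0.08 (n = 5) with ApoE-KO, 8.46 ± 0.09 (n = 6) with ApoE-Stab1-KO and 8.48 ± 0.05 (n = 6) with ApoE-Stab2-KO plasma. Mcm3 averaged 8.72 ± 0.12, 8.82 ± 0.11, 8.82 ± 0.07 and 8.86 ± 0.05 in this order, and its difference of ApoE-Stab2-KO from wildtype was 0.14 ± 0.06 (interval 0.03 to 0.25; limma adjusted p = 0.457). Cdc6, which loads the helicase at origins, averaged 6.49 ± 0.22, 6.46 ± 0.04, 6.49 ± 0.19 and 6.45 ± 0.18. The plasma groups overlapped in Mcm2, Mcm3 and Cdc6. Cyclin E, which carries the cell into S phase, is encoded by Ccne1 (5.83 ± 0.11, 5.79 ± 0.18, 5.76 ± 0.17 and 5.81 ± 0.11) and Ccne2 (5.56 ± 0.10, 5.50 ± 0.26, 5.46 ± 0.28 and 5.59 ± 0.13). E2f1, the factor that turns many of these genes on, averaged 7.17 ± 0.10, 7.05 ± 0.09, 7.12 ± 0.08 and 7.08 ± 0.10. Gins1, a further GINS subunit, was the most variable of the 45 genes (5.01 ± 0.17, 5.07 ± 0.13, 5.02 ± 0.32 and 5.02 ± 0.14), and Rrm1, the large subunit of ribonucleotide reductase, was among the least (9.67 ± 0.03, 9.62 ± 0.07, 9.64 ± 0.09 and 9.66 ± 0.05). No step from licensing (Cdc6, Mcm2) through cyclin E to the fork (Pcna) moved past the threshold in any comparison.

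The 3 G1 regulators had their lowest group mean with wildtype plasma, which is the lowest group in 26.3% of all genes. Ccnd1, the gene of cyclin D1, stood at 11.80, 11.80, 11.87, 11.74 and 11.88 in the ApoE-KO arrays and ranged from 11.67 to 11.84 (median 11.80) with wildtype, from 11.72 to 11.91 (11.83) with ApoE-Stab1-KO and from 11.75 to 11.93 (11.83) with ApoE-Stab2-KO plasma. Its group means spanned 0.04 and its groups overlapped. Cdkn1a (p21) stood at 10.42, 10.54, 10.44, 10.55 and 10.66 with ApoE-KO plasma and ranged from 10.34 to 10.50 (10.43), from 10.39 to 10.54 (10.48) and from 10.46 to 10.66 (10.56) with wildtype, ApoE-Stab1-KO and ApoE-Stab2-KO plasma. The ApoE-Stab2-KO arrays lay mostly above the wildtype arrays, with a difference of 0.13 ± 0.04 (1.09-fold; interval 0.04 to 0.22; unadjusted p = 0.00858, limma adjusted p = 0.38). Cdkn1b (p27), which accumulates in cells held in G1, stood at 7.89, 8.11, 7.62, 8.15 and 7.90 with ApoE-KO plasma and ranged from 7.42 to 8.03 (7.83), from 7.73 to 8.11 (7.92) and from 7.94 to 8.12 (8.01) with the same 3 plasmas. The widest group was wildtype, and ApoE-Stab2-KO minus wildtype was 0.23 ± 0.09 (1.17-fold; interval 0.04 to 0.42; unadjusted p = 0.0208, limma adjusted p = 0.477).

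**Figure D2:**
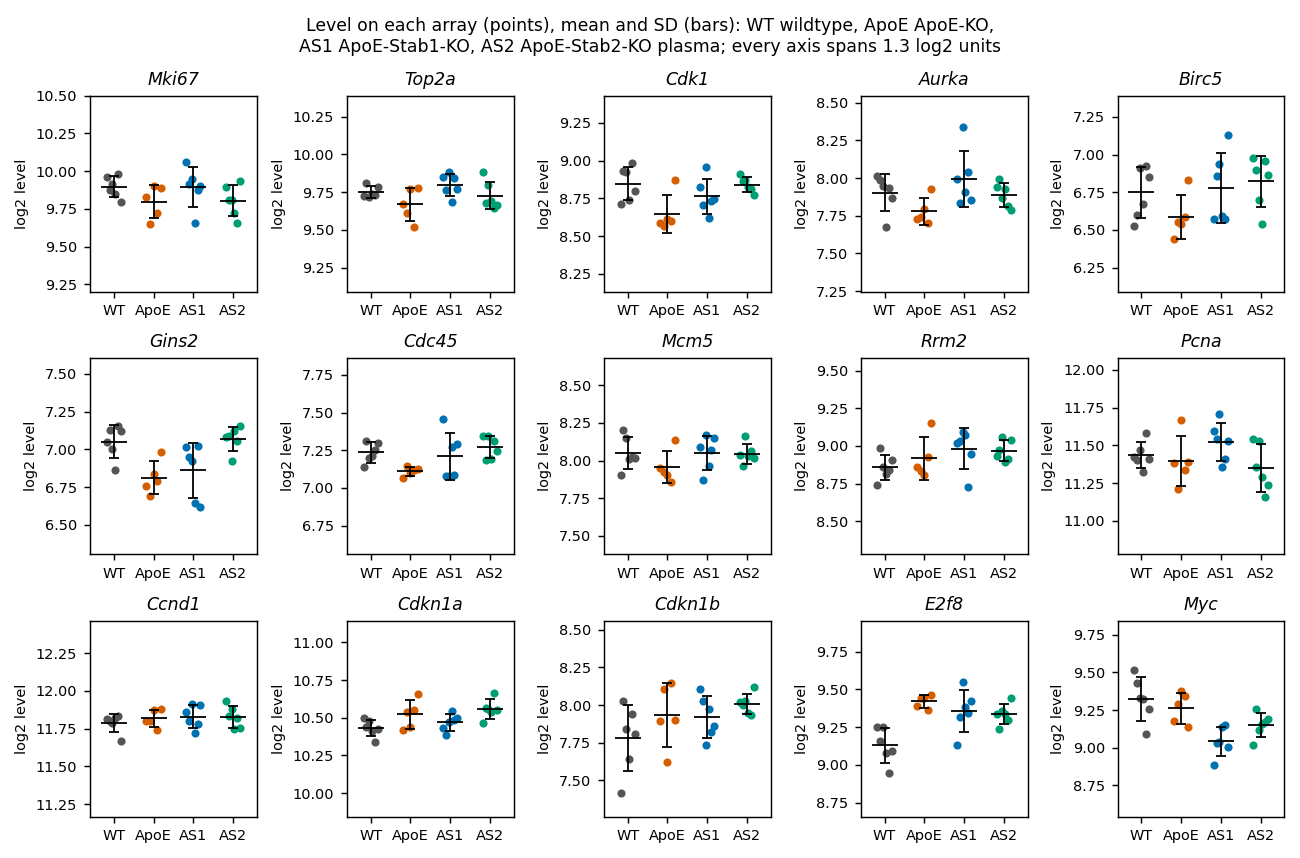
Log2 level of 15 genes on every array (points) with the mean and SD of each plasma group (bars), from 6 wildtype, 5 ApoE-KO, 6 ApoE-Stab1-KO and 6 ApoE-Stab2-KO arrays; every axis spans 1.3 log2 units. In Cdk1 and Gins2 the ApoE-KO points sit low except replicate 5, and E2f8 and Myc are the genes of the wider pathway that passed the test in 1 comparison each.

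ApoE-KO was set against wildtype plasma to learn how plasma of donors without apolipoprotein E, kept on Western diet, acts on the cells. In it 0 of 45 genes passed (background 0.53% of all genes) and 5 had an unadjusted p under 0.05, all of them lower: Cdk1, Gins2, Cdc45, Bub1b and Ccnb2, the gene of cyclin B2 (-0.15 ± 0.06, unadjusted p = 0.0275, limma adjusted p = 0.392). That is 5 of 45 where 10.5% of all genes had such a p. The difference was negative in 19 of 24 mitotic and 15 of 18 S-phase genes, with a median of -0.06 in both, while 12653 of all genes were positive and 12051 negative, with a median of 0.00. In the wider lists, 37 of 68 further mitotic genes were negative (median -0.01) and 23 of 47 further replication genes were (median 0.00), whereas 13 of 14 endothelial markers were negative (median -0.06), and their part in the result was not tested. Genes of a pathway vary together from array to array, so these counts are not counts of independent events. The array means of the 24 mitotic genes were 8.36 ± 0.03 (SD, n = 6; 8.33 to 8.40) with wildtype and 8.30 ± 0.07 (n = 5; 8.23 to 8.38) with ApoE-KO plasma, and overlapped. Those of the 18 S-phase genes were 7.90 ± 0.03 (7.87 to 7.94) and 7.85 ± 0.05 (7.80 to 7.93), and overlapped too.

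ApoE-Stab1-KO and ApoE-Stab2-KO plasma were each compared with ApoE-KO plasma, which asks what the loss of 1 stabilin in the donor adds. In both comparisons 0 of 45 genes passed, where 0.00405% and 0.0243% of all genes did. With ApoE-Stab1-KO plasma 6 of 45 genes had an unadjusted p under 0.05, all of them higher and all mitotic (Top2a, Bub1b, Aurka, Aurkb, Cenpa and Ttk), beside 5.57% of all genes. With trend and robust settings limma took 5 of 45, and the share of all genes under those settings was not computed. The difference was positive in 23 of 24 mitotic and 12 of 18 S-phase genes, with medians of 0.08 and 0.02. With ApoE-Stab2-KO plasma 7 genes had such a p, all higher (Ccnb2, Cdk1, Aurkb, Birc5, Ube2c, Gins2 and Cdc45), beside 8.36% of all genes. Its difference was positive in 18 of 24 mitotic and 15 of 18 S-phase genes, with medians of 0.06 and 0.04. Of the 68 further mitotic genes, 48 were positive with ApoE-Stab1-KO plasma (median 0.04) and 39 with ApoE-Stab2-KO plasma (median 0.02), and of the 47 further replication genes 25 and 24 were (medians 0.00). Over all genes 12390 and 11878 of 24704 were positive. These comparisons share the 5 ApoE-KO arrays with each other and with the comparison above, so a low ApoE-KO array moves all 3. Array means of the mitotic genes were 8.39 ± 0.07 (n = 6; 8.31 to 8.50) with ApoE-Stab1-KO and 8.36 ± 0.05 (n = 6; 8.31 to 8.43) with ApoE-Stab2-KO plasma. For S-phase genes they were 7.88 ± 0.07 (7.75 to 7.97) and 7.90 ± 0.04 (7.85 to 7.97), and each of these groups overlapped the ApoE-KO group.

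Seen by group order, the ApoE-KO mean was the lowest of 4 in 16 of 24 mitotic genes (66.7%), in 9 of 18 S-phase genes (50%) and in 23.4% of all genes. It was the highest in 1 mitotic and 1 S-phase gene. This describes the order of means and is no test.

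In the comparisons of double-knockout with wildtype plasma the median differences lay between -0.03 and 0.03. With ApoE-Stab1-KO plasma 0 of 45 passed (background 0.364%), 2 had an unadjusted p under 0.05 (Cenpe higher, Gins2 lower) where 11.3% of all genes did, and the medians were 0.03 for mitotic and -0.03 for S-phase genes. With ApoE-Stab2-KO plasma 0 passed (background 0.178%), 3 had such a p, all higher (Mcm3, Cdkn1a and Cdkn1b), where 8.49% of all genes did, and both medians were -0.01. Between the double knockouts 0 passed (background 0.0486%), 3 had such a p (Gins2 higher, Cenpe and Pcna lower with ApoE-Stab2-KO plasma) where 11% of all genes did, and the medians were -0.03 and 0.02.

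**Figure D3:**
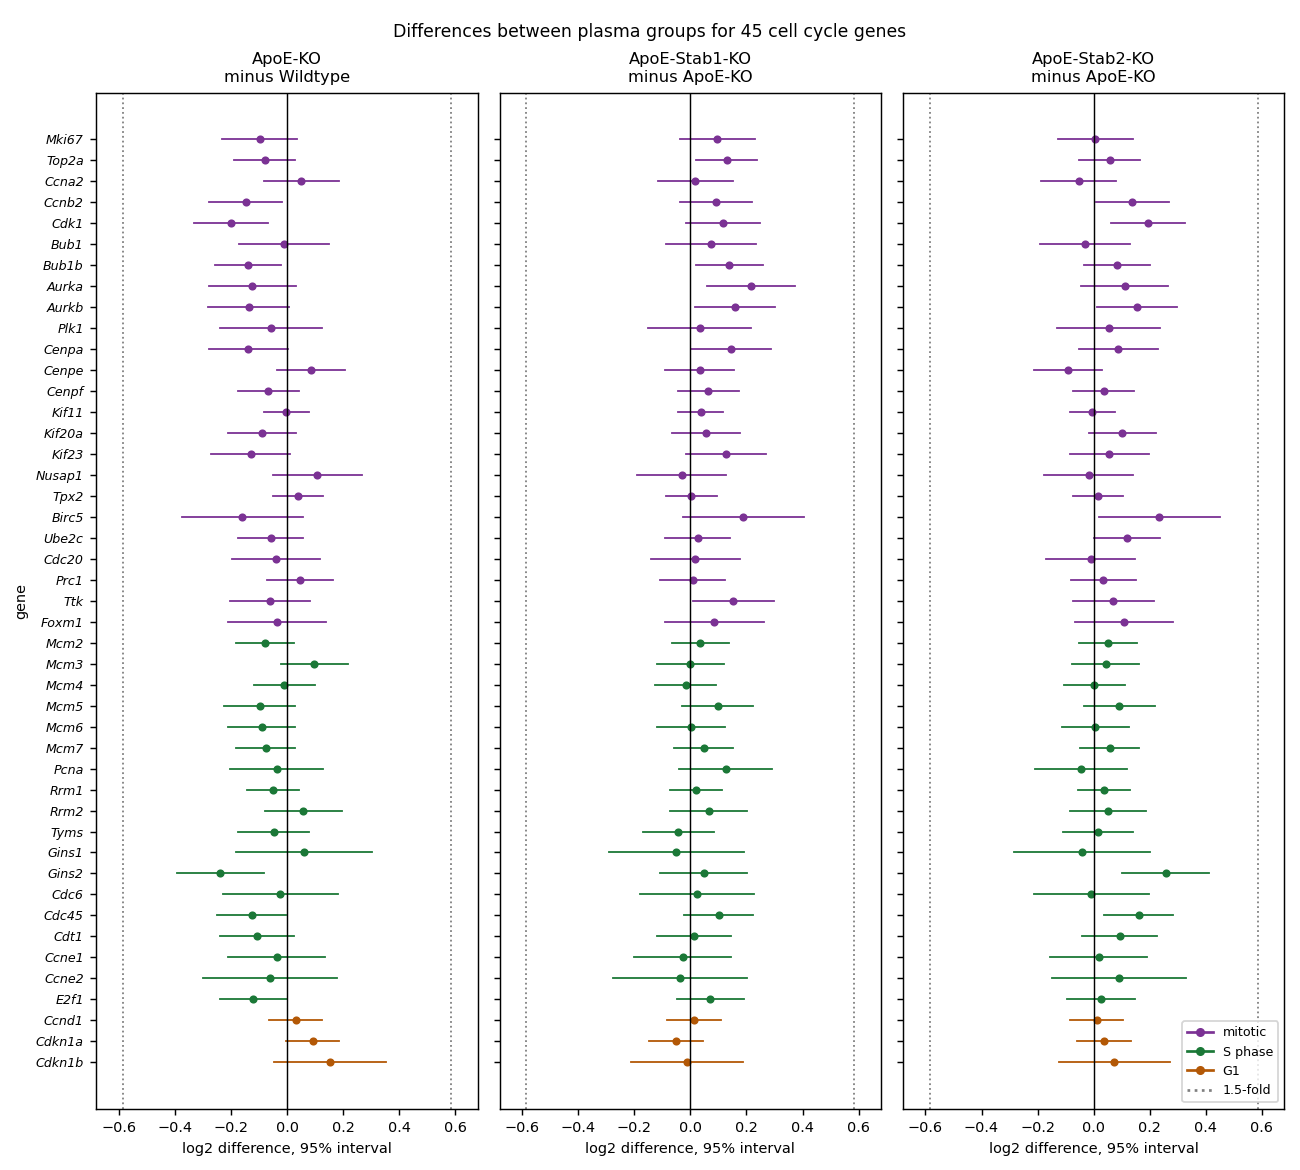
Log2 differences between plasma groups with 95% intervals for 45 genes (rows; purple mitotic, green S phase, orange G1) in 3 comparisons (panels); dotted lines mark a 1.5-fold change in either direction. Every interval lies inside the dotted lines.

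Arrays of 1 group differed from each other in many cell cycle genes at once. ApoE-Stab1-KO replicate 3 lay 0.12 above its group's mean over the 24 mitotic genes, with 20 of 24 above, and 0.09 above over S-phase genes, with 17 of 18 above. ApoE-Stab1-KO replicate 2 was the opposite, with a mean S-phase deviation of -0.12 and 3 of 18 genes above. In the ApoE-KO group, replicate 2 had 0 of 24 mitotic genes above its group's mean, whereas replicates 3 and 5 had 20 of 24 each. Across pairs of genes, with each gene's group means removed, the correlation over 23 arrays had a median of 0.27 among mitotic genes (228 of 276 pairs positive), 0.17 among S-phase genes (117 of 153) and 0.20 between the 2 kinds (337 of 432). Pairs of other genes were not examined, so whether cell cycle genes differ from other genes in this was not tested. The values are descriptions, since pairs share genes, and all share the arrays. Even so the spread was small: the SD within groups was 0.10 at the median over the 45 genes and 0.12 over all genes, ranging from 0.05 (Kif11) to 0.21 (Gins1), and 31 of 45 lay below the median gene.

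**Figure D4:**
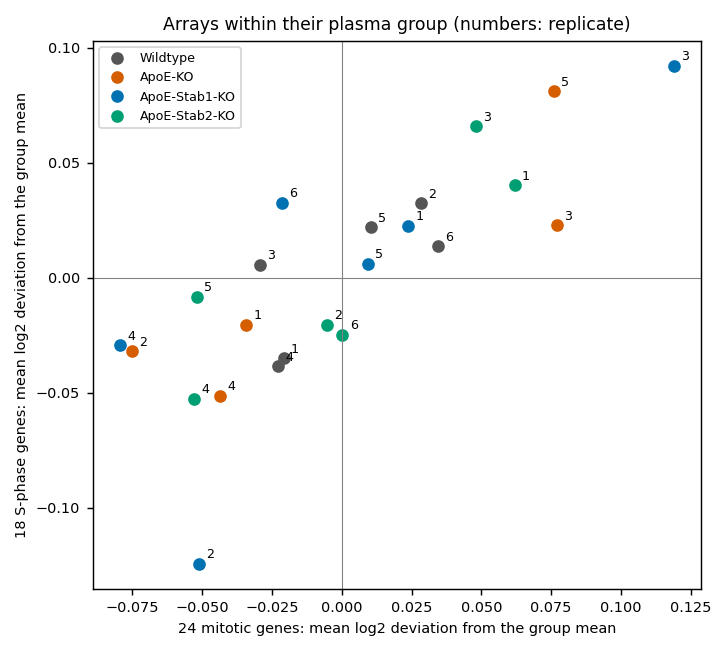
Mean log2 deviation of each of 23 arrays from its plasma group's mean, over 24 mitotic genes (horizontal) and 18 S-phase genes (vertical); colours are plasma groups and numbers are replicates. ApoE-Stab1-KO replicate 3 lies at the upper right, and ApoE-Stab1-KO replicate 2 lies lowest on the S-phase axis at -0.12.

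Of 7 pairs of genes tested for co-variation between arrays, 2 passed. Mki67 and Top2a gave r = 0.567 over 23 arrays (two-sided permutation p = 0.00485, adjusted over the 7 pairs 0.017) and rho = 0.525 (p = 0.0114, adjusted 0.0399). Within groups r was 0.849 for ApoE-KO, 0.80 for ApoE-Stab1-KO, 0.439 for ApoE-Stab2-KO and -0.586 for wildtype arrays. Mki67 and Ccnd1 gave r = 0.581 (permutation p = 0.00312, adjusted 0.017) and rho = 0.566 (p = 0.0056, adjusted 0.0392), with r of 0.763, 0.718, 0.217 and 0.736 in those groups. The 2 arrays whose Mki67 deviation from its group mean was farthest from the median deviation were ApoE-Stab1-KO replicate 4 and ApoE-Stab2-KO replicate 5. Without them r was 0.428 for Mki67 with Top2a (permutation p = 0.0535, adjusted 0.125) and 0.508 for Mki67 with Ccnd1 (permutation p = 0.0184, adjusted 0.125). Both values were lower than over all arrays but stayed positive, and neither passed after adjustment. Mcm2 with Mcm5 (r = 0.445, permutation adjusted p = 0.079), Mcm5 with Rrm2 (0.406, 0.0877), Mki67 with Cdkn1a (-0.393, 0.0877), Mki67 with Mcm5 (0.198, 0.425) and Mki67 with Cdkn1b (-0.132, 0.551) did not pass. As a description, Ccnd1 correlated positively with 22 of 24 mitotic and 16 of 18 S-phase genes, while Cdkn1b correlated negatively with 17 of 24 and 12 of 18. Cdkn1a was negative with 17 of 24 mitotic and positive with 12 of 18 S-phase genes.

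In the wider pathway few genes passed the adjusted threshold, as was so for all genes. Of 47 further replication genes (origin recognition, polymerases and fork proteins), 68 further mitotic genes, 23 p53 targets and 40 replication-dependent histone genes, 0 passed in any comparison or in the F-test, where 0.546% of all genes passed the F-test. At an unadjusted p under 0.05 the F-test took 8, 9, 6 and 7 of them, each a larger share than the 11.9% of all genes. In the pairwise comparisons 1 of 23 p53 targets (ApoE-Stab2-KO minus ApoE-KO, beside 8.36% of all genes) to 8 of 23 (ApoE-Stab1-KO minus wildtype, beside 11.3%) had such a p. Whether these shares exceed those of all genes was not tested. Histone genes are near-identical copies, so their probe sets may share signal. Only 19 of the 40 lay above the level of the median gene. Their SD within groups was 0.20 at the median, beside 0.12 over all genes, so small differences in them could be missed. Timeless, a fork protection factor, was the replication gene with the smallest F-test p (limma adjusted p = 0.0987), with means of 7.87 ± 0.04 (SD, n = 6) with wildtype, 7.62 ± 0.07 (n = 5) with ApoE-KO, 7.74 ± 0.16 (n = 6) with ApoE-Stab1-KO and 7.65 ± 0.09 (n = 6) with ApoE-Stab2-KO plasma. The next were Orc1, the origin recognition subunit (adjusted p = 0.132), and Pola1, the catalytic subunit of the priming polymerase (0.32). Among mitotic genes Cenpl, of the inner kinetochore (0.186), Bora, an activator of the mitotic kinases (0.215), and Hmgb2, a chromatin protein (0.246), came first, and among p53 targets the kinase gene Plk3 (0.0739), the cyclin gene Ccng1 (0.177) and Mdm2, the ligase that degrades p53 (0.263).

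Among 31 genes of G1 and the restriction point, 0 passed the F-test (0.546% of all genes did). At an unadjusted p under 0.05 the F-test took 9 of 31, a larger share than the 11.9% of all genes. Pairwise, 2 of 31 (ApoE-Stab2-KO minus ApoE-KO, beside 8.36% of all genes) to 9 of 31 (ApoE-Stab1-KO minus wildtype, beside 11.3%) had such a p, and the excess was not tested. E2f8 rose in ApoE-KO minus wildtype and Myc fell in ApoE-Stab1-KO minus wildtype. Both come from a list chosen with earlier results of these data known, which limits what their adjusted p-values show. E2f8, an atypical E2F that represses E2F targets, stood at 9.39, 9.45, 9.45, 9.37 and 9.46 in the ApoE-KO arrays. It ranged from 8.95 to 9.25 (median 9.13) with wildtype, from 9.13 to 9.55 (9.36) with ApoE-Stab1-KO and from 9.24 to 9.44 (9.34) with ApoE-Stab2-KO plasma. All ApoE-KO values lay above all wildtype values, as 1.98% of all genes had groups without overlap in this comparison. The difference was 0.29 ± 0.06 (1.22-fold; interval 0.16 to 0.42; limma adjusted p = 0.0316). With ApoE-Stab1-KO plasma it was 0.23 ± 0.06 (adjusted p = 0.0947) and with ApoE-Stab2-KO plasma 0.20 ± 0.06 (0.224), both against the same wildtype arrays. The call was lost without ApoE-KO replicate 1 (adjusted p = 0.0519), 2 (0.09), 3 (0.0806) or 5 (0.064), and without wildtype replicate 4 (0.0654), 5 (0.0728) or 6 (0.0621), with a difference of 0.25 to 0.31 throughout the arrays left out in turn.

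Myc, the growth factor-responsive regulator that promotes entry into the cycle, stood at 9.18, 9.29, 9.37, 9.34 and 9.13 in the ApoE-KO arrays. It ranged from 9.09 to 9.52 (median 9.33) with wildtype, from 8.89 to 9.15 (9.04) with ApoE-Stab1-KO and from 9.02 to 9.26 (9.16) with ApoE-Stab2-KO plasma. Wildtype and ApoE-Stab1-KO arrays overlapped in a narrow band. ApoE-Stab1-KO minus wildtype was -0.28 ± 0.06 (0.822-fold; interval -0.41 to -0.15; limma adjusted p = 0.0452). The call was lost without ApoE-Stab1-KO replicate 1 (adjusted p = 0.0748), 2 (0.0706), 3 (0.08435) or 6 (0.0832), and without wildtype replicate 1 (0.108), 2 (0.0945), 3 (0.0772), 4 (0.0868) or 6 (0.06825). The difference stayed between -0.33 and -0.25 throughout. As background for both genes, Egfl7 and Cldn5, 2 of the 14 endothelial markers, fell in ApoE-KO minus wildtype (-0.27 ± 0.04, limma adjusted p = 0.00136, and -0.27 ± 0.06, 0.0459). Egfl7 also fell in ApoE-Stab1-KO minus wildtype (-0.21 ± 0.04, limma adjusted p = 0.0122). Cldn5 was lower there too (-0.25 ± 0.06) but just missed the threshold (limma adjusted p = 0.0508). Of the 14 markers, 13 were negative and 1 positive in ApoE-KO minus wildtype. In ApoE-Stab1-KO minus wildtype 8 were negative and 6 positive, with differences from -0.25 to 0.27. The part of these markers in the differences of E2f8 and Myc was not tested.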

How the data were processed

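RNA of 23 samples of primary mouse aortic endothelial cells was measured on arrays with biotin-labelled cRNA. The authors deposited log2 values (the scale follows from their range) made with RMA, per the submitters' processing notes; RMA corrects background, normalizes by quantiles and summarizes probe sets, and its version was not given in the sources. Quantile normalization gives all arrays 1 distribution, so levels are relative, and the number of arrays limits the precision. Of 25428 probe sets, 24705 had 1 symbol in the platform annotation, 0 had several and 723 had none; the brighter probe set was kept per symbol (24704 genes), and none was filtered.

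Groups came from the labels. The test was limma 3.58.1, run in R 4.3.3 (lmFit, eBayes; 1 mean per group over all 23 arrays; 19 residual and 4.19 prior degrees of freedom), with Benjamini-Hochberg adjustment over all 24704 genes in each comparison and a threshold of 0.05; the script was tested on simulated data. Pairs of genes were tested by 100000 permutations of deviations from group means, adjusted over the 7 pairs. Plots used matplotlib 3.10.9 and Python 3.11.15. The members, the further lists (replication, mitosis, G1, p53 targets, histones, cell type markers), the tests and the rule for named genes were chosen with earlier results of these data known. The rule named a set of marker genes always, in each comparison the 2 S-phase, 2 mitotic and 1 G1 genes with the smallest unadjusted p, and the 3 most and 3 least variable members; of each further list it named genes past the threshold, otherwise up to 3 with the smallest F-test p. Histone symbols were matched through RefSeq synonyms (40 of 53 found). Beside Ccnb1, further list genes without a row were not analysed here. Alternatives were median centring, repeated quantile normalization, a filter at the median level, array weights, eBayes with trend and robust settings, a block for the replicate number, probe sets kept apart, fits of only the arrays compared, and each array left out in turn.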

Additional observations from a re-analysis of the deposited data

Results flagged for a closer look

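In 108 groups of 5 or 6 arrays (27 named genes in 4 plasma groups), 4 held an array that lay far from the others for the size of its group by Dixon's test, where chance gives about 5.4 at 1 in 20. Cdk1 stood at 8.87 in ApoE-KO replicate 5, with the nearest array at 8.61 and the others down to 8.57. Kif11 stood at 8.22 in the same array, with the nearest at 8.13. Cdc6 stood at 6.53 in ApoE-KO replicate 4, with the nearest at 6.46. Ccnd1 stood at 11.67 in wildtype replicate 6, with the nearest at 11.79.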

How the results depend on the processing

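Of the 45 listed genes, the count past the threshold stayed 0 in the F-test and in the 6 comparisons under every alternative run. In the main fit at most 0.546% of all genes passed, so 0 among 45 genes was near the background. The smallest adjusted p was 0.0571 (limma, ApoE-KO minus wildtype), and at an unadjusted p under 0.05 the alternatives gave 1 to 10 of 45. The share of all genes was not computed for the alternatives, so these counts have no background beside them. Of 193 alternative values of results with a test, 171 kept their side of the threshold, 22 lost the call and 0 reversed. Most of those that kept it were counts of called genes among the 45, which stayed 0 and have no direction. All 22 lost calls were among the results that had passed: E2f8, Myc and the pairs of Mki67 with Top2a and with Ccnd1, as given below. The 234 alternative values of median differences, which have no test, each moved by less than the SD between arrays, and 5 of them changed sign. That SD was 0.0563 for array means of mitotic and 0.0523 for those of S-phase genes. It was larger than most of the medians themselves, so staying within it says little about their stability. The correlation of Mki67 fell to 0.428 with Top2a and to 0.508 with Ccnd1 when the 2 arrays with the farthest Mki67 deviations from their group means were left out; the cause was not tested. E2f8 did not pass in 8 of 19 alternatives, among them the fit with only the arrays compared (adjusted p = 0.0579), and its adjusted p ranged from 0.00478 to 0.09. Myc did not pass in 12 of 20, among them array weights (0.0836) and only the arrays compared (0.199), with a range of 0.0121 to 0.199. The changes of sign came with 1 array left out: ApoE-Stab2-KO minus wildtype, S phase (range -0.03 to 0.01; without ApoE-Stab2-KO replicate 4) and mitotic (-0.02 to 0.01; without ApoE-Stab2-KO replicate 4 or wildtype replicate 1 or 2), and ApoE-Stab2-KO minus ApoE-Stab1-KO, S phase (-0.01 to 0.03; without ApoE-Stab1-KO replicate 2).

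Deviations of same-numbered arrays of different groups correlated between -0.0958 and 0.106, with a median of 0.0121, beside a median of -0.0031 for differently numbered arrays. Of 23 arrays, 6 matched their own number best. No chance level was computed for these values, so whether the replicate numbers pair the arrays was not tested. With the replicate number as a block, 0 of 45 genes passed in any comparison, and Myc did not pass (adjusted p = 0.0741).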
